A study of Mus musculus with 6 samples.

Results

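The 82 peroxisome genes described here are the rows of the deposited table whose KEGG column names the Peroxisome pathway, of 32771 genes in the table. They comprise 17 Pex genes of peroxisome biogenesis, 6 other membrane proteins, 4 ATP-binding cassette transporters of subfamily D, 30 genes of fatty acid oxidation and activation, 4 of ether lipid synthesis, 10 antioxidant genes and 11 other enzymes. The 17 Pex genes are every row of the table with a Pex name. The roles were assigned by hand, and several members act mainly outside the organelle: SOD2 and IDH2 are mitochondrial enzymes, and PEX5L is known as a partner of ion channels in neurons.

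The libraries are bulk RNA-seq of mouse aorta. There were 3 libraries from wild-type (WT) mice given an antibody against CTHRC1 (numbered 5, 7 and 39) and 3 from WT mice given isotype IgG (numbered 14, 18 and 20). All the mice also received AngII/BAPN, that is angiotensin II, a pressor peptide, and beta-aminopropionitrile, an inhibitor of collagen and elastin cross-linking, a combination used to provoke aortic dissection. CTHRC1 is a secreted glycoprotein made by activated fibroblasts. Neither group was free of AngII/BAPN, so the comparison is of antibody against isotype control within the disease model. Strain, sex, age, doses, times, the aortic segment and the number of animals behind each library are not given in the sources used here, so p-values measure the spread between libraries, which may be technical in part.

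Peroxisomes are small organelles bounded by a single membrane that import folded enzymes from the cytosol with the help of the peroxins, the products of the Pex genes. They shorten very long-chain and branched fatty acids, make the first steps of ether lipids, and produce and destroy hydrogen peroxide, mostly through acyl-CoA oxidases and catalase. The oxidation enzymes and PEX11A are classical targets of the PPAR nuclear receptors in rodent liver, and fat cells hold peroxisomes in large number.

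Some sequences show what the deposited counts can and cannot resolve. Acaa1a (GRCm38 chr9:119339676-119350298) and Acaa1b (GRCm38 chr9:119148023-119157093) both encode the peroxisomal 3-ketoacyl-CoA thiolase, and their coding sequences of 1275 bases in GENCODE M21 are identical at 1231 positions (96.5%). The first 60 coding bases are shown, and they differ at 1 position, which is in capitals.
Acaa1a: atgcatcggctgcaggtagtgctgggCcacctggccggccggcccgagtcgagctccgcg
Acaa1b: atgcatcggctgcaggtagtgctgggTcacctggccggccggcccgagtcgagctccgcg
A read that covers the capital base differs between the genes, while a read that lies wholly within an identical stretch can fall to either. Of the 82 members, 10 share an exact stretch of 150 bases, the read length, with another annotated gene, among them Scp2, Hacl1, Paox, Sod2 and Gnpat. A further limit is that 35 members are overlapped by a gene on the other strand, Pex11a, Pex13, Pex14, Pex16, Acaa1a and Sod1 among them, and 9 by a gene on the same strand. The library kit keeps strand, but whether the counting used it is not given, so the counts of these members are uncertain to that extent.

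Promoter windows from RefSeq (GRCm38.p6, 250 bases before to 50 after the gene's start) were found by symbol for 61 members of the 82 and for 27025 genes in all. The windows were searched on both strands for the element bound by PPAR and RXR dimers, 2 copies of AGGTCA in the same direction with any 1 base between them, and for the single arm AGGTCA, which lies within it. The whole element was in the windows of 0 of the 61 members and of 0.0481% of all genes. With any base at the fourth position of each arm it was again in 0 members, against 0.451% of all genes. The single arm was in 9 of 61 members (14.8%) and in 18.1% of all genes. The stretches around 3 of the single arms are shown, for catalase, sterol carrier protein 2 and a glutathione transferase whose values are given below, with the motif in capitals. Cat is on the minus strand (chr2:103485325-103485384), as is Scp2 (chr4:108118624-108118683), whose RefSeq start used here lies inside the gene as deposited. Gstk1 is on the plus strand (chr6:42245767-42245826) and carries the arm in reverse complement.
Cat: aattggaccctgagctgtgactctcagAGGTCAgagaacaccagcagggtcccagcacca
Scp2: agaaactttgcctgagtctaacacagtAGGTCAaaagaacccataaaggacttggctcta
Gstk1: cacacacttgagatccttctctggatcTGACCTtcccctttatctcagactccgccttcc
The motif begins 204 bases before the start in Cat, 109 in Scp2 and 141 in Gstk1. A match is a run of letters and not a measured binding site, and nothing in these data measured binding.

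Deposited counts summed to 64556253 to 67859566 per library. Mitochondrial transcripts took 15.7% to 20.1% of counts in the anti-CTHRC1 libraries and 12.3% to 22.8% in the IgG libraries. Several libraries stood apart in their levels of cell type markers. Summed levels of 16 adipocyte markers were 9892, 18733 and 14838 CPM (read counts scaled to library size by TMM) in anti-CTHRC1 libraries 5, 7 and 39, against 5517, 4426 and 8698 CPM in IgG libraries 14, 18 and 20. Smooth muscle markers, which define most cells of the aortic wall, were present in every library, at 5605, 2466 and 3679 CPM with anti-CTHRC1 and 3481, 8140 and 6458 CPM with IgG. Heart muscle markers reached 922 CPM in IgG 14 against 45.3 CPM in IgG 20, and skeletal muscle markers 415 CPM in anti-CTHRC1 39 against 43.1 CPM in anti-CTHRC1 7. Markers of hepatocytes, cells rich in peroxisomes, summed to 347 to 539 CPM with anti-CTHRC1 and 122 to 1112 CPM with IgG, and 1 gene, Cyp2e1, made up most of these sums, at 335 to 525 CPM with anti-CTHRC1 and 100.3 to 1097 CPM with IgG. Alb, the defining hepatocyte gene, was at 0.23 to 1.93 CPM with anti-CTHRC1 and 0.98 to 16.2 CPM with IgG, and Apoa1, Apob, Fgb, Tat and Ttr were at 0 in at least 1 library.

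The most abundant members per length were catalase, thiol peroxidases and lipid-handling enzymes. On the deposited FPKM scale, averaged over the 6 libraries, Cat stood at 82.8 FPKM, Prdx1 at 69.5, Scp2 at 69.4, Ech1 at 69.4, Phyh at 50.3, Ephx2 at 49.7 and Acsl1 at 47.9. A mean of 1 FPKM or more was reached by 73 of the 82 members. The lowest were Baat, the bile acid conjugating enzyme of liver, at 0.024 FPKM, Hmgcll1 at 0.027, Acsl6 at 0.081 and Acox2, the liver enzyme of bile acid side chains, at 0.097. Baat, Hao2 and Dao did not pass the filter on low counts. Hao2, a hydroxyacid oxidase, was at 0, 0 and 0.12 CPM with anti-CTHRC1 and at 1.57, 0 and 0.27 CPM with IgG. Dao, D-amino acid oxidase, was at 0.12, 0.14 and 0 CPM with anti-CTHRC1 and at 1.34, 0.09 and 0 CPM with IgG.

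The comparison asked whether peroxisome genes differed between aortas of anti-CTHRC1-treated and IgG-treated mice. No member passed edgeR's quasi-likelihood test at an adjusted p of 0.05 over 19241 genes, and the lowest adjusted p among members was 0.109, for Idh1. The test called 61 of all genes (0.317%), 20 higher (0.104%) and 41 lower (0.213%). At an unadjusted edgeR p under 0.05, 35 members were higher and 1 lower, of 79 tested, against 7.8% of all genes higher and 9.31% lower. DESeq2 called 12 members, all higher (3.73% of all genes higher, 5.11% lower), and limma-voom called 0, with 50 of all genes (0.26%). The 12 were Paox, Idh1, Gstk1, Sod2, Pex11a, Gnpat, Acaa1a, Nudt7, Acaa1b, Hsd17b4, Scp2 and Abcd2.

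Values leaned to one side across the set. The log2 fold change, anti-CTHRC1 over IgG, was positive in 69 of the 79 members tested, where 47.7% of all genes had a positive value. Its median over the 79 members was 0.44, against -0.02 over all genes, and its range was -1.91 to 1.33. The 3 anti-CTHRC1 libraries lay above all IgG libraries in 22 members (27.8% of those tested) and below them in 1, Acsl6. Over all genes, the antibody libraries lay above all IgG libraries in 11.0% and below them in a further 11.0%. The 82 members together took 0.427%, 0.61% and 0.537% of counts in anti-CTHRC1 libraries 5, 7 and 39, against 0.414%, 0.338% and 0.413% in IgG libraries 14, 18 and 20. In a bulk sample a change in the number of cells of a type cannot be told apart from a change in RNA per cell. Adipocyte markers moved the same way: all 16 had positive values (median 1.35 on the log2 scale), and 1 of them, Lep, passed edgeR's test (adjusted p = 0.0412). Brown adipocyte markers had positive values in 10 of 12 (median 0.80), fibroblast markers in 8 of 10 (median 0.46), skeletal muscle markers in all 9 tested, and heart muscle markers in 9 of 12, of which Myl4, Myl7 and Sln passed the test. Macrophage markers had positive values in 1 of 15, smooth muscle and hepatocyte markers in 0 of 10 and 0 of 8, and endothelial markers in 5 of 10. The macrophage markers Mpeg1 and Trem2 fell, with log2 fold changes of -2.10 and -1.52 (edgeR adjusted p = 0.0155 for both). The part of cell makeup in the values of the peroxisome genes was not tested.

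The lean was not shared evenly by the libraries of a group. Anti-CTHRC1 7 was the highest of all 6 libraries in 56 of 79 members (70.9%, against 19.7% of all genes). Anti-CTHRC1 5 was the lowest of its group in 62 members (78.5%, against 39.3% of all genes). IgG 20 was the highest IgG library in 49 members and IgG 18 the lowest in 50 (63.3%), against 30.6% and 33.1% of all genes. Anti-CTHRC1 5 lay below IgG 20 in 39 members (49.4%), a share close to the 49.5% of all genes. Anti-CTHRC1 39 lay between the other 2 antibody libraries in 58 of 79 members (73.4%), as it did in 52.5% of all genes. The same order, with library 7 above 39 and 39 above 5, held for the summed adipocyte markers. With all libraries, 36 members and 3292 genes had an unadjusted edgeR p under 0.05. These counts were 11 members and 2054 genes without anti-CTHRC1 7, 15 and 1802 without anti-CTHRC1 39, and 17 and 2468 without IgG 18. They were 44 members and 3136 genes without anti-CTHRC1 5, 25 and 3704 without IgG 14, and 40 and 4045 without IgG 20. DESeq2 called 1 member, Idh1, without anti-CTHRC1 7, 2 higher and 1 lower (Acsl6) without anti-CTHRC1 39, and 3 without IgG 18. It called 30 without anti-CTHRC1 5, 13 without IgG 14 and 25 without IgG 20. Over all genes, DESeq2 called 966 without anti-CTHRC1 7, 723 without anti-CTHRC1 39 and 1125 without IgG 18. Its calls over all genes were 2162 without anti-CTHRC1 5, 2078 without IgG 14 and 2507 without IgG 20.

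**Figure D1:**
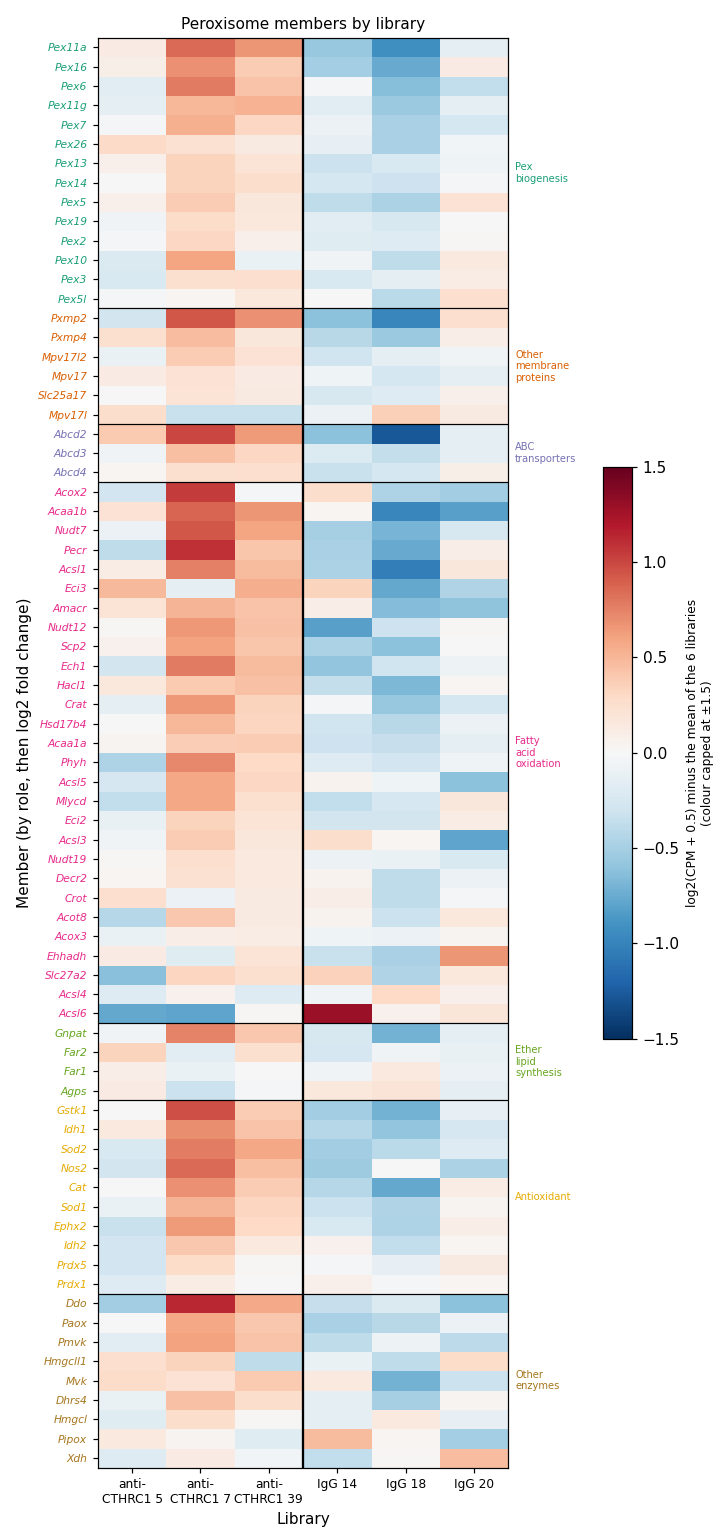
Level of 74 of the 79 tested members (rows, by role and then by log2 fold change) in each library (columns, anti-CTHRC1 left of the line and IgG right), as log2(CPM + 0.5) minus the mean of the 6 libraries, with colour capped at 1.5. Red is most intense in anti-CTHRC1 7, which was the highest library in 56 members, while anti-CTHRC1 5 and IgG 20 have similar colours in many rows.

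Biogenesis genes had higher values in the anti-CTHRC1 libraries throughout, by small amounts. All 17 Pex genes had positive log2 fold changes, with a median of 0.40 and a range of 0.07 to 1.12. No Pex gene passed edgeR's test. An unadjusted p under 0.05 was found in 8 (47.1%, against 7.8% of all genes higher). In 5 the groups did not overlap (29.4%, against 11% of all genes with the antibody higher). Their summed level was 427, 574 and 506 CPM in anti-CTHRC1 libraries 5, 7 and 39, against 369, 333 and 429 CPM in IgG libraries 14, 18 and 20. The sum of anti-CTHRC1 5 was below that of IgG 20, so the groups overlapped by these 2 libraries.

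Pex11a (GRCm38 chr7:79735957-79743131) encodes a membrane protein that elongates peroxisomes before they divide. Its level was 17.1, 28.7 and 25.02 CPM in anti-CTHRC1 libraries 5, 7 and 39, against 10.4, 8.07 and 14.1 CPM in IgG libraries 14, 18 and 20. Every anti-CTHRC1 library lay above every IgG library. The means were 23.6 ± 5.95 CPM with anti-CTHRC1 and 10.9 ± 3.03 CPM with IgG (SD, n = 3 each), and the log2 fold change was 1.12 (SE 0.27, edgeR adjusted p = 0.147, DESeq2 adjusted p = 0.00385). Leaving out 1 library at a time gave log2 fold changes of 0.95 to 1.40. Its paralogue Pex11g had 5.29, 8.54 and 8.66 CPM with anti-CTHRC1 and 5.18, 3.84 and 5.30 CPM with IgG, with a log2 fold change of 0.65 (SE 0.26, edgeR adjusted p = 0.279). Here anti-CTHRC1 5 was level with IgG 20. Per length, on the FPKM scale, the mean level of Pex11a was 6.86 with anti-CTHRC1 and 3.29 with IgG.

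The import machinery consists of soluble receptors, a docking complex, a ubiquitin ligase and a motor that recycles the receptors. Pex5, the receptor for the common C-terminal signal, had 44.4, 55.3 and 47.5 CPM with anti-CTHRC1 and 32.3, 30.3 and 49.1 CPM with IgG, and IgG 20 lay among the antibody libraries. Pex7, the receptor for the N-terminal signal carried by thiolase, had 13.1, 19.3 and 16.6 CPM with anti-CTHRC1 and 12.4, 9.25 and 10.9 CPM with IgG. Its groups did not overlap, though anti-CTHRC1 5 was close to IgG 14, and its log2 fold change was 0.58 (SE 0.19, edgeR adjusted p = 0.213). Both docking proteins were separated between groups. Pex13 had 35.5, 42.4 and 38.9 CPM with anti-CTHRC1 and 26.8, 28.6 and 32.3 CPM with IgG, a log2 fold change of 0.41 (SE 0.12, edgeR adjusted p = 0.185). Pex14 had 34.4, 43.7 and 41.5 CPM with anti-CTHRC1 and 28.7, 27.8 and 34.3 CPM with IgG, a log2 fold change of 0.40 (SE 0.14, edgeR adjusted p = 0.225). In Pex14 the lowest antibody library and the highest IgG library differed by less than the spread within either group.

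Pex2 and Pex10, genes of the ring-finger ligase that ubiquitinates the receptors, had small log2 fold changes of 0.25 and 0.24 with overlapping groups. Of the receptor-recycling motor, Pex6 had 39.8, 76.9 and 60.6 CPM with anti-CTHRC1 and 44.0, 28.6 and 34.5 CPM with IgG, and IgG 14 was above anti-CTHRC1 5. Its log2 fold change was 0.73 (SE 0.26, edgeR adjusted p = 0.246). Pex26, which anchors this motor to the membrane, had 11.0, 10.5 and 9.82 CPM with anti-CTHRC1 and 8.18, 6.20 and 8.67 CPM with IgG. Its groups did not overlap (log2 fold change 0.44, edgeR adjusted p = 0.275), and it was the 1 Pex gene of those 5 in which anti-CTHRC1 5 was the highest library.

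Membrane proteins are inserted with the help of PEX3, PEX16 and PEX19. Pex19, the chaperone and the most abundant Pex gene per length (24.3 FPKM with anti-CTHRC1 and 21.3 FPKM with IgG), had 87.6, 111 and 102 CPM with anti-CTHRC1 and 81.6, 77.1 and 91.7 CPM with IgG. Pex16 had 34.2, 51.8 and 41.9 CPM with anti-CTHRC1 and 22.4, 18.9 and 35.0 CPM with IgG. Pex3, the docking receptor, had 18.1, 25.3 and 25.5 CPM with anti-CTHRC1 and 18.1, 19.3 and 23.0 CPM with IgG. The log2 fold changes of Pex19, Pex16 and Pex3 were 0.26, 0.75 and 0.19, and the groups overlapped in all 3 genes. Pex5l, the neuronal relative, had a log2 fold change of 0.09.

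Of the 6 other membrane proteins, 5 had positive log2 fold changes (median 0.33). The groups did not overlap in 2 (33.3%, against 11% of all genes with the antibody higher). Pxmp4, a small membrane protein, had 32.8, 38.5 and 31.3 CPM with anti-CTHRC1 and 20.7, 18.7 and 29.7 CPM with IgG, a log2 fold change of 0.57 (edgeR adjusted p = 0.224). Mpv17, a channel-like protein placed mainly in the mitochondrial inner membrane, had 36.2, 38.5 and 36.3 CPM with anti-CTHRC1 and 31.8, 27.4 and 30.2 CPM with IgG. Its 6 values were tightly grouped, with a log2 fold change of 0.31 (SE 0.10, edgeR adjusted p = 0.203). Mpv17l was the exception in sign, at -0.28.

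**Figure D2:**
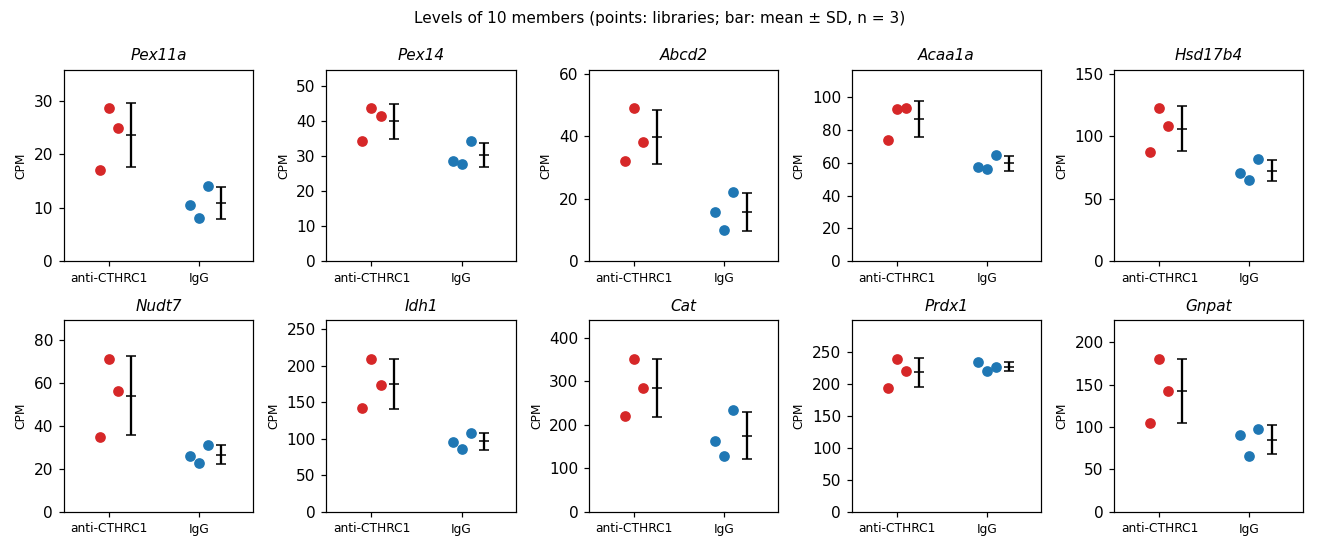
Level in CPM (vertical axes, from 0) of 10 members in each anti-CTHRC1 library (left, red points) and IgG library (right, blue points), with bars for the mean and SD of 3 libraries. Groups are apart in Pex11a, Abcd2, Acaa1a, Nudt7 and Idh1 and overlap in Cat and Prdx1.

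Fatty acids enter the organelle through the ABC transporters of subfamily D, and the product of Abcd2 handles very long-chain substrates. Abcd2 (GRCm38 chr15:91145871-91191799) had 32.0, 49.0 and 38.0 CPM in anti-CTHRC1 libraries 5, 7 and 39, against 15.7, 9.79 and 22.0 CPM in IgG libraries 14, 18 and 20. The groups were clearly apart, and the log2 fold change of 1.33 was the highest of any tested member (SE 0.31, edgeR adjusted p = 0.140, DESeq2 adjusted p = 0.00128). Leaving out 1 library at a time gave 1.08 to 1.69. Abcd3, the abundant transporter of branched and dicarboxylic acids, had 76.6, 109 and 98.7 CPM with anti-CTHRC1 and 68.9, 62.2 and 72.4 CPM with IgG. Its groups did not overlap, with a log2 fold change of 0.48 (SE 0.15, edgeR adjusted p = 0.200). Abcd4, which exports cobalamin from lysosomes, had a log2 fold change of 0.35.

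Genes of fatty acid oxidation and activation had a median log2 fold change of 0.54, with 26 of 29 tested members positive and a range of -1.91 to 1.31. No such gene passed edgeR's test, 13 had an unadjusted p under 0.05 with higher values and 1 with lower, and DESeq2 called 5. Over all genes, 7.8% were higher and 9.31% lower at that unadjusted p, and DESeq2 called 3.73% higher. Their summed level was 1998, 3132 and 2649 CPM in anti-CTHRC1 libraries 5, 7 and 39, against 1621, 1429.9 and 2021 CPM in IgG libraries 14, 18 and 20. Anti-CTHRC1 5 and IgG 20 were again nearly equal. The median was 0.29 without anti-CTHRC1 7, the library with the highest sum.

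The bifunctional enzymes, which hydrate and oxidise the chain, had unlike values. Ehhadh, the enzyme of straight chains, had 19.0, 15.4 and 20.2 CPM with anti-CTHRC1 and 13.8, 12.4 and 27.9 CPM with IgG, and both extremes were IgG libraries. Hsd17b4, the other bifunctional enzyme, had 87.0, 123 and 109 CPM with anti-CTHRC1 and 70.4, 65.1 and 81.7 CPM with IgG. It was apart between groups, with a log2 fold change of 0.55 (SE 0.16, edgeR adjusted p = 0.186, DESeq2 adjusted p = 0.0303).

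The thiolases close the cycle. Acaa1a had 73.9, 92.8 and 93.6 CPM with anti-CTHRC1 and 57.5, 56.5 and 64.9 CPM with IgG. Its group means were 86.8 ± 11.1 CPM with anti-CTHRC1 and 59.6 ± 4.58 CPM with IgG (SD, n = 3 each). The log2 fold change was 0.54 (SE 0.13, edgeR adjusted p = 0.143, DESeq2 adjusted p = 0.00758), with every antibody library above every IgG library. Acaa1b, whose coding sequence is nearly identical as shown above, had 12.03, 19.3 and 16.5 CPM with anti-CTHRC1 and 10.4, 4.98 and 5.63 CPM with IgG, a log2 fold change of 1.18 (SE 0.33, edgeR adjusted p = 0.179, DESeq2 adjusted p = 0.0124). Of the distinct 150-base stretches in the annotated transcripts of Acaa1a, 3.88% also occur in Acaa1b. The share is 11.31% of the stretches of Acaa1b, so the split of reads between the 2 genes is uncertain. Scp2 (GRCm38 chr4:108043839-108144994), which encodes the branched-chain thiolase SCPx and a lipid carrier, had 256, 374 and 327 CPM with anti-CTHRC1 and 177, 159.6 and 244 CPM with IgG. The lowest antibody library was just above the highest IgG library, with a log2 fold change of 0.72 (SE 0.21, edgeR adjusted p = 0.191, DESeq2 adjusted p = 0.0196). A processed copy, Scp2-ps2, holds 14.53% of the distinct 150-base stretches of Scp2 transcripts.

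Among genes that prepare substrates or release products, Nudt7 (GRCm38 chr8:114133557-114154739), a coenzyme A diphosphatase of the peroxisome, had 34.7, 71.2 and 56.1 CPM with anti-CTHRC1 and 25.9, 22.7 and 31.2 CPM with IgG. Its groups were apart, with a log2 fold change of 1.02 (edgeR adjusted p = 0.165, DESeq2 adjusted p = 0.00751). Acetyl units and shortened chains leave as carnitine esters: Crat, carnitine acetyltransferase, had 165, 284 and 228 CPM with anti-CTHRC1 and 177, 122 and 150.4 CPM with IgG. IgG 14 lay above anti-CTHRC1 5 there, and the octanoyl enzyme gene Crot had 34.7, 27.2 and 31.8 CPM with anti-CTHRC1 and 31.2, 22.0 and 28.6 CPM with IgG. Ech1, an isomerase of unsaturated chains that is shared with mitochondria, had 131, 273 and 222 CPM with anti-CTHRC1 and 106, 129 and 151 CPM with IgG.

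The alpha-oxidation pathway for methyl-branched phytanic acid was mixed. Phyh, the hydroxylase mutated in Refsum disease, had 70.0, 159.7 and 119 CPM with anti-CTHRC1 and 84.6, 79.1 and 92.8 CPM with IgG, with the lowest library in the antibody group (log2 fold change 0.44, edgeR adjusted p = 0.469). Hacl1, the lyase of the next step, had 11.7, 13.8 and 14.3 CPM with anti-CTHRC1 and 8.04, 6.33 and 10.6 CPM with IgG. Amacr, the racemase that lets branched acids enter beta-oxidation, had 11.4, 14.3 and 13.45 CPM with anti-CTHRC1 and 10.6, 6.09 and 6.31 CPM with IgG. Groups did not overlap in either Hacl1 or Amacr, and both had an edgeR adjusted p of 0.209.

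Acyl-CoA synthetases, which activate fatty acids at several membranes, went in both directions. Acsl1, the main synthetase of fat and muscle, had 535, 832 and 688 CPM with anti-CTHRC1 and 356, 241 and 555 CPM with IgG, and IgG 20 lay above anti-CTHRC1 5. Acsl4, which prefers arachidonate, had a log2 fold change of -0.22. Acsl6, a neuronal synthetase, was the 1 member with all anti-CTHRC1 libraries below all IgG libraries, at 0.18, 0.17 and 0.68 CPM with anti-CTHRC1 and 2.36, 0.71 and 0.81 CPM with IgG. These levels are low and the separation of anti-CTHRC1 39 from IgG 18 is slight, with a log2 fold change of -1.91 (SE 0.77, edgeR adjusted p = 0.280).

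**Figure D3:**
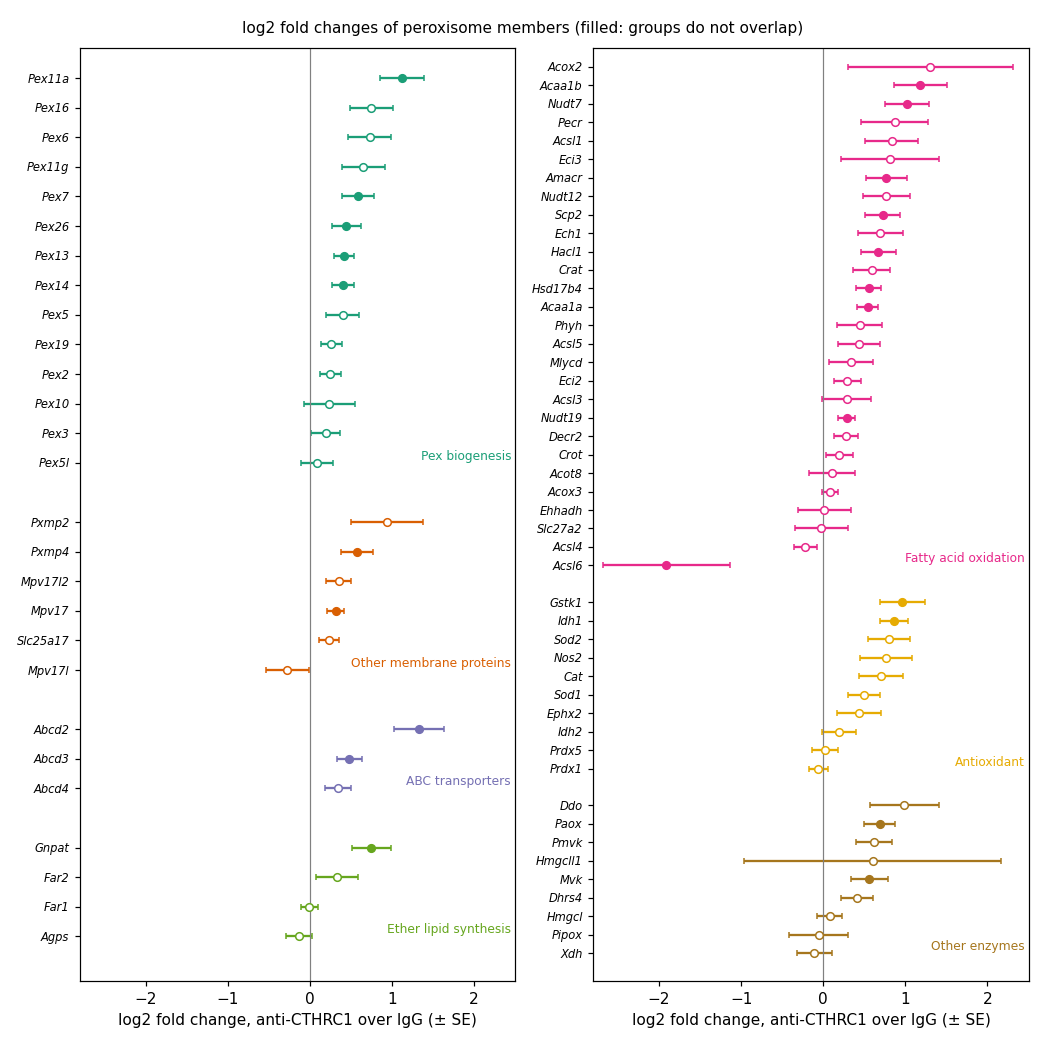
log2 fold change of 74 tested members, anti-CTHRC1 over IgG, with its SE (horizontal axis), by role. Filled points are members whose groups do not overlap, and most points lie right of 0, with Abcd2 at 1.33 and Acsl6 at -1.91 as the extremes.

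Antioxidant members ran from log2 fold changes near 0 to higher values, with Idh2 at 0.20 and Ephx2 at 0.44 in between. The role was drawn broadly, and its 10 genes include Ephx2, an epoxide hydrolase, and Nos2, a nitric oxide synthase. Of the 10, 9 had positive log2 fold changes, with a median of 0.60 and a range of -0.06 to 0.96. No antioxidant gene passed edgeR's test, 6 had an unadjusted p under 0.05, DESeq2 called 3, and in 2 the groups did not overlap. All of these were higher with anti-CTHRC1. Over all genes, 7.8% were higher at that unadjusted p and DESeq2 called 3.73% higher. In 11% of all genes the groups did not overlap with the antibody higher, against 20% of the antioxidant members. The summed level was 1087, 1729.5 and 1451 CPM in anti-CTHRC1 libraries 5, 7 and 39, against 1030.1, 920.0 and 1199.9 CPM in IgG libraries 14, 18 and 20. In all 10 genes anti-CTHRC1 7 was the highest library of the 6, and in all 10 anti-CTHRC1 39 lay between 5 and 7.

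Idh1 (GRCm38 chr1:65158616-65186500), the cytosolic and peroxisomal isocitrate dehydrogenase that supplies NADPH, had 143, 209.8 and 173 CPM in anti-CTHRC1 libraries 5, 7 and 39, against 95.4, 85.5 and 109 CPM in IgG libraries 14, 18 and 20. Every antibody library was above every IgG library. Means were 175 ± 33.7 CPM with anti-CTHRC1 and 96.5 ± 11.6 CPM with IgG (SD, n = 3 each), with a log2 fold change of 0.86 (SE 0.17, edgeR adjusted p = 0.109, DESeq2 adjusted p = 0.000341). Leaving out 1 library at a time gave 0.71 to 0.998, and DESeq2 called it in each of the 6 fits that left out a library. The mitochondrial enzyme gene Idh2 had 95.3, 155 and 129.6 CPM with anti-CTHRC1 and 122, 90.4 and 119 CPM with IgG, with overlapping groups.

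Catalase breaks down the hydrogen peroxide of the oxidases. Cat (GRCm38 chr2:103453849-103485160) had 219.5, 352 and 284 CPM with anti-CTHRC1 and 162, 128 and 235 CPM with IgG, a log2 fold change of 0.70 (edgeR adjusted p = 0.257). IgG 20 lay above anti-CTHRC1 5, so the groups overlapped. Sod2, the mitochondrial superoxide dismutase, had 112, 224 and 197 CPM with anti-CTHRC1 and 91.4, 99.4 and 114 CPM with IgG, a log2 fold change of 0.80 (edgeR adjusted p = 0.205, DESeq2 adjusted p = 0.0318). Anti-CTHRC1 5 lay within the IgG values, and 7.9% of the distinct 150-base stretches of Sod2 transcripts also occur in another gene. Sod1, the copper and zinc enzyme of the cytosol, had 109.7, 168 and 147 CPM with anti-CTHRC1 and 94.4, 86.2 and 121 CPM with IgG, again with IgG 20 above anti-CTHRC1 5.

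The peroxiredoxin members, Prdx1 and Prdx5, had values near 0 on the log2 scale. Prdx1, a cytosolic thiol peroxidase, had 193, 239 and 219.8 CPM with anti-CTHRC1 and 234, 219.6 and 226 CPM with IgG, a log2 fold change of -0.06 (edgeR adjusted p = 0.839). Prdx5, which is found in peroxisomes and mitochondria, had 86.7, 128 and 107 CPM with anti-CTHRC1 and 104, 97.3 and 116 CPM with IgG, a log2 fold change of 0.02. Prdx3, a mitochondrial peroxiredoxin that is not in the KEGG rows, had 91.3, 173 and 136 CPM with anti-CTHRC1 and 72.8, 68.8 and 84.1 CPM with IgG. Its groups were apart, with a log2 fold change of 0.83 (edgeR adjusted p = 0.182), and it was chosen after its values were seen. Gstk1 (GRCm38 chr6:42245935-42250441), the glutathione transferase of peroxisomes and mitochondria, had 19.1, 37.5 and 24.7 CPM with anti-CTHRC1 and 13.0, 11.4 and 17.3 CPM with IgG. Its groups were apart, with a log2 fold change of 0.96 (SE 0.28, edgeR adjusted p = 0.189, DESeq2 adjusted p = 0.0219). Ephx2, the soluble epoxide hydrolase, had 99.7, 197 and 155 CPM with anti-CTHRC1 and 107, 91.3 and 135 CPM with IgG, with anti-CTHRC1 5 inside the IgG range. Nos2, the inducible nitric oxide synthase, had 8.76, 19.7 and 14.9 CPM with anti-CTHRC1 and 7.25, 10.7 and 7.59 CPM with IgG, with a log2 fold change of 0.76 (edgeR adjusted p = 0.285).

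Ether lipid synthesis starts with an acylation by GNPAT and an exchange by AGPS in the same complex. The genes of these enzymes had unlike values. Gnpat (GRCm38 chr8:124863033-124890057) had 104, 181 and 143 CPM with anti-CTHRC1 and 91.1, 66.0 and 98.0 CPM with IgG. Its groups did not overlap, with a log2 fold change of 0.75 (SE 0.24, edgeR adjusted p = 0.203, DESeq2 adjusted p = 0.0348). Agps had 32.2, 23.5 and 29.1 CPM with anti-CTHRC1 and 32.9, 33.6 and 26.6 CPM with IgG, and anti-CTHRC1 7, the highest library for most members, was its lowest. Its groups overlapped, and its log2 fold change of -0.13 was smaller than its SE of 0.16 (edgeR adjusted p = 0.710). The fatty alcohol reductase genes Far1 and Far2 had log2 fold changes of -0.01 and 0.33.

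Of the 11 other enzymes, 9 were tested and 7 had positive log2 fold changes (median 0.56). Paox, the polyamine oxidase that releases hydrogen peroxide, had 22.6, 34.1 and 30.1 CPM with anti-CTHRC1 and 15.9, 16.8 and 21.3 CPM with IgG. Its groups were apart by a small gap (log2 fold change 0.69, SE 0.19, edgeR adjusted p = 0.179, DESeq2 adjusted p = 0.0281). Of the distinct 150-base stretches of Paox transcripts, 20.38% also occur in Gm19680. Mvk and Pmvk, the kinases of the mevalonate pathway, had log2 fold changes of 0.56 and 0.62. Mvk had 21.8, 20.95 and 23.7 CPM with anti-CTHRC1 and 19.9, 10.8 and 14.3 CPM with IgG, and its groups did not overlap. Xdh, xanthine oxidoreductase, had 138, 171 and 153 CPM with anti-CTHRC1 and 122, 159 and 218 CPM with IgG, where IgG 20 was the highest library. Ddo, D-aspartate oxidase, had 4.73, 16.1 and 10.6 CPM with anti-CTHRC1 and 5.42, 5.99 and 4.44 CPM with IgG, with a wide spread inside the antibody group.

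Most genes tied to peroxisomes or to fatty acid oxidation but absent from the KEGG rows had positive values without passing edgeR's test. Of 10 tested genes for peroxisomal proteins outside the list, 8 had positive log2 fold changes (median 0.52), 6 had an unadjusted p under 0.05, and DESeq2 called 3. Over all genes, 7.8% were higher at that unadjusted p and DESeq2 called 3.73% higher. Of 10 genes for organelle division, contacts and turnover, 7 were positive, with a median of 0.09. In that list 3 had an unadjusted p under 0.05 and DESeq2 called 2. Acbd4, an acyl-CoA binding tether between peroxisomes and the endoplasmic reticulum, had 58.8, 71.6 and 65.3 CPM with anti-CTHRC1 and 38.7, 43.8 and 40.8 CPM with IgG. The groups of Acbd4 were apart, with a log2 fold change of 0.67 (SE 0.11, edgeR adjusted p = 0.0758). Isoc1 and Tmem135 had log2 fold changes of 0.60 and 0.71 (edgeR adjusted p = 0.132 and 0.159). Of 17 genes of mitochondrial beta-oxidation, 16 were positive with a median of 0.77, and 0 passed edgeR's test. An unadjusted p under 0.05 was found in 12 (70.6%, against 7.8% of all genes higher), and DESeq2 called 5. Cpt2, the inner carnitine palmitoyltransferase, had 76.8, 137 and 112 CPM with anti-CTHRC1 and 62.3, 44.0 and 61.4 CPM with IgG, with groups apart and a log2 fold change of 0.96 (SE 0.24, edgeR adjusted p = 0.157).

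Regulators and antioxidants outside the organelle were less uniform. Of 10 genes for PPAR receptors and their partners, 9 had positive log2 fold changes (median 0.31), and 0 passed edgeR's test, 0 had an unadjusted p under 0.05 and DESeq2 called 0. Pparg, the receptor of fat cells, had 56.9, 135 and 104 CPM with anti-CTHRC1 and 48.5, 49.98 and 84.0 CPM with IgG. Ppara, the receptor of liver and oxidative muscle, was low, at 3.49, 9.91 and 6.57 CPM with anti-CTHRC1 and 4.19, 3.23 and 5.03 CPM with IgG. Among 20 antioxidant genes of other compartments, 11 had positive log2 fold changes (median 0.10). Only 1 of these passed edgeR's test, with lower values: Hmox1, haem oxygenase, which macrophages express strongly. Hmox1 was at 28.7 ± 3.04 CPM with anti-CTHRC1 and 147 ± 41.4 CPM with IgG (SD, n = 3 each). Its log2 fold change was -2.35 (edgeR adjusted p = 0.0194). Macrophage markers summed to 989, 1431 and 1264 CPM with anti-CTHRC1 and 2463, 2346 and 1797 CPM with IgG, and their part in the value of Hmox1 was not tested.

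**Figure D4:**
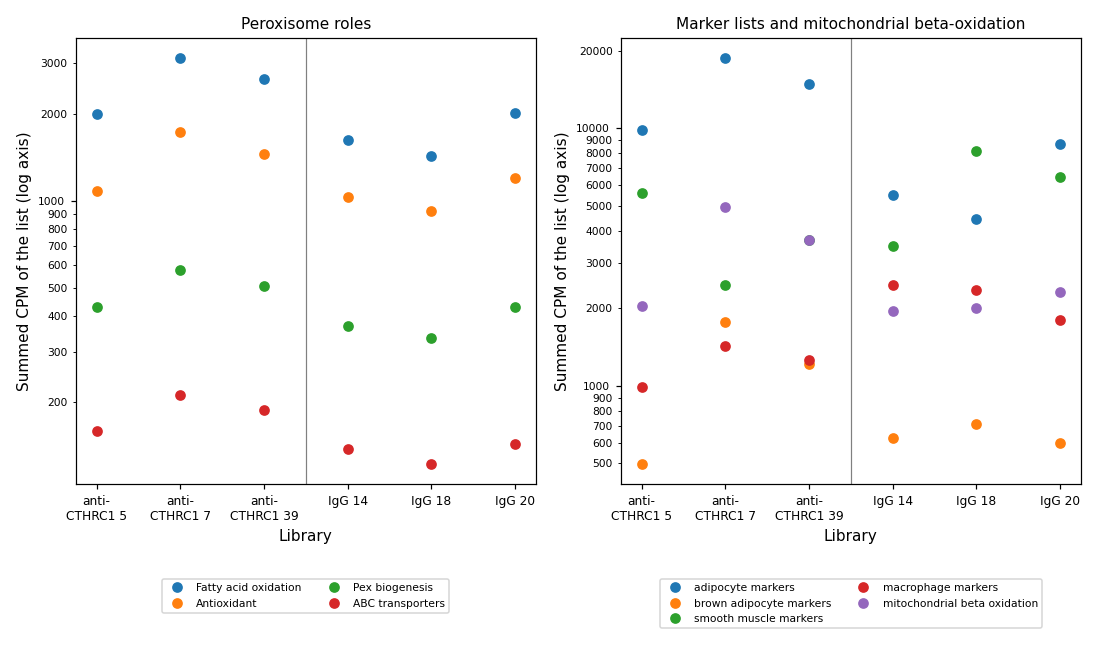
Summed CPM (log axis) of 4 groups of peroxisome members (left) and of 4 cell marker lists and mitochondrial beta-oxidation genes (right) in each library, anti-CTHRC1 libraries left of the line. The peroxisome sums and the adipocyte sums are both highest in anti-CTHRC1 7 and, among IgG libraries, both lowest in IgG 18. The brown adipocyte and beta-oxidation sums are also highest in anti-CTHRC1 7. The brown adipocyte sums are 629.1, 710.1 and 601.4 CPM in IgG 14, 18 and 20, so IgG 18 is the highest of these. Among IgG libraries the beta-oxidation sum is lowest in IgG 14. The brown adipocyte list contains 1 member, Slc27a2.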

How the data were processed

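RNA was made into stranded total RNA libraries and sequenced as paired ends of 150 bases, per the labels' protocols. For each gene and library the deposited table holds a raw read count (whole numbers) and an FPKM value, scaled by the authors to gene length and library size, beside KEGG terms and gene positions, per the file headers. HISAT2, StringTie, DESeq2 and GRCm38 are named in the submitters' processing notes. Their versions, the counting mode and the use of strand are not given in the sources used here.

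All 6 libraries entered 1 fit of the counts in edgeR 4.0.16 (R 4.3.3), with filterByExpr (minimum count 10), TMM scaling, robust dispersions and a two-sided quasi-likelihood F-test without covariates, adjusted by Benjamini-Hochberg over 19241 genes with a threshold of 0.05. CPM are TMM-scaled, and each standard error comes from the log2 fold change and its moderated F. Between libraries, the biological coefficient of variation was 0.397. This comparison was also tested on simulated data in which 200 of 18636 genes had been altered. It recovered 24% at a true change of 2-fold and 58% at 4-fold, and made 5 false calls. Alternatives were DESeq2 1.42.0, its size factors in edgeR, limma 3.58.1 (voom, and log2(FPKM + 1) or log2(FPKM + 0.1) for genes with a mean of 0.1 FPKM), no filter, library sizes without mitochondrial and haemoglobin genes, leaving out each replicate, and leaving out anti-CTHRC1 39 and IgG 14 together. DESeq2 under the same omissions was added after seeing the data.

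The members, role lists, marker lists and other lists were chosen with earlier results of these data known. A few members are not reported here by name, though they remain in the counts and sums. The other named genes were the Pex members, in each other role the 6 with the smallest edgeR p plus a fixed panel, and outside the KEGG rows those past the threshold and up to 3 per list with the smallest p. DESeq2 gave no adjusted p for 1 tested member. Genes not named are given as ranges and counts. Of the members, 82 were in GENCODE M21, 69 with the same coordinates. Coding sequences are the longest open reading frames of its protein-coding transcripts.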

Additional observations from a re-analysis of the deposited data

How the results depend on the processing

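The medians of all members, Pex, fatty acid oxidation and antioxidant genes were positive under every alternative run for them, and edgeR and limma called 0 members under every alternative run. DESeq2 called 12 members and 1700 genes, against 0 and 61 in edgeR. Without each library in turn, members called ranged from 0 in edgeR to 30 in DESeq2 and genes called from 0 in edgeR to 2507 in DESeq2. Leaving out anti-CTHRC1 39 and IgG 14 together gave 0 genes in edgeR, and 4 members and 668 genes in DESeq2. Genes called numbered 95 with no filter and 17 with log2(FPKM + 1). The leave-one-out medians ran from 0.31 to 0.57 for all members, 0.27 to 0.53 for Pex genes, 0.29 to 0.68 for fatty acid oxidation and 0.42 to 0.76 for antioxidant genes. On the log2(FPKM + 1) scale, which understates low genes, the medians of Pex and fatty acid oxidation genes were 0.23 and 0.34. Library sizes without mitochondrial and haemoglobin genes, used without TMM, moved the median of all genes to -0.09 and that of all members to 0.35. In that fit 65 of 79 members were positive. There, 26 members and 3426 genes had an unadjusted edgeR p under 0.05, against 36 and 3292 in the main fit. Across the leave-one-out fits 12 members changed sign. The causes were not tested. No paired analysis was possible because the groups share no replicate numbers (5, 7 and 39 against 14, 18 and 20). Depth does not limit the abundant members, but those under 1 CPM, such as Acsl6, rest on few counts.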
